A study of Mus musculus with 7 samples.

Results

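Caloric restriction was set against a control diet in cells of the mouse seminal vesicle, in 4 mice with 2 per diet. A cell was used if its deposited profile held at least 500 genes and at most 10% of its UMIs (unique molecular identifiers, each standing for 1 captured mRNA molecule) came from mitochondrial genes. This left 3032 cells, among 5312 cells in the 8 mice of the diet experiment and 40342 cells in the 23 mice of the series. UMIs were summed per mouse over secretory cells, defined as cells in which the seminal vesicle secretory genes Svs2, Svs4, Svs5 and Svs6 together took at least 30% of UMIs, and over all other cells, which were also divided into classes by marker genes. All 4 mice were wild-type FVB/NJ males of 3 months. Control mice ate a purified control diet based on AIN-93G after weaning. Calorie-restricted (CR) mice each had a cage to themselves, and their AIN-93G ration was weighed out at 70% of the unrestricted intake of a mouse kept alone. The housing of the control mice and the age at which restriction began were not given in the sources used here, so that ration and single housing cannot be told apart, and GEO's labels list free access to food for every mouse. A further 2 mice on a high fat diet and 2 on a low protein diet were tagged, pooled and sequenced with these 4, and their values are given as ranges over the 4 mice on these other diets.

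The seminal vesicle is an androgen-dependent accessory gland whose secretory epithelium makes most of the volume of semen. A small set of abundant proteins, the SVS proteins, is secreted into the lumen and forms the copulatory plug, together with protease inhibitors and small proteins that bind sperm. Beneath the secretory cells lie basal cells, and around them a stroma of fibroblasts and smooth muscle. Caloric restriction is known in rodents for lower circulating insulin and insulin-like growth factor and for changed feeding times, which shift clock gene expression in peripheral tissues.

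The 4 libraries differed in size. Control mouse 1 gave 1057 cells, control mouse 2 gave 174, CR mouse 1 gave 1114 and CR mouse 2 gave 687. Secretory cells numbered 123 and 16 in the control mice and 92 and 17 in the CR mice, and held 5103508, 436567, 3212104 and 371934 UMIs in the same order of mice. The other cells held 4729291, 537443, 4732860 and 2800901 UMIs. Control mouse 2 was therefore the thinnest library, and many calls below rest on control mouse 1, as stated beside them. No cell barcode was shared between libraries. The markers of the labelled tissue were present. In the cells counted as secretory, the 4 SVS genes took a median of 56.6% and 56.8% of a cell's UMIs in the control mice and 60.5% and 54.8% in the CR mice, and 0 of 6 epididymis markers had a UMI. The 6 prostate markers summed to between 9.16 and 159 CPM (the usual count unit, a gene's UMIs scaled to a common total per mouse) in the control mice and between 10.8 and 443 CPM in the CR mice. With 2 mice a diet, the edgeR p-values and standard errors (SE) rest on a spread shared by all diets of the experiment. The mice on the other diets therefore enter it, except where only the 4 compared mice were fitted. This spread covers the sampled mice only.

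Secretory cells made up 11.6% of cells in control mouse 1 (exact 95% binomial interval 9.77% to 13.7%) and 9.20% in control mouse 2 (5.35% to 14.5%), against 8.26% in CR mouse 1 (6.71% to 10.0%) and 2.47% in CR mouse 2 (1.45% to 3.93%). Both CR mice lay below both control mice and below the range of 9.54% to 11.6% in the mice on the other diets, and the CR mean of 5.37% was 5.05 percentage points under the control mean of 10.4%. In the edgeR fit of cell class shares over all 8 mice, the log2 difference was -0.95 and did not pass (adjusted p = 0.198). The exact two-sided permutation test of 2 mice against 2 cannot go below p = 0.333, the value it gave. The difference was -7.94 points without CR mouse 1 and -2.16 points without CR mouse 2. On either side of the threshold, cells with 20% to 30% of their UMIs from the 4 SVS genes numbered 19, 0, 5 and 3 in the order of mice above, and cells with 30% to 50% numbered 46, 5, 20 and 6. Tissue was opened, drained of fluid, digested and passed over a density gradient before capture, so that these are shares of recovered cells.

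In secretory cells the mRNAs of several seminal fluid products were lower in CR mice, and the loss was uneven across the products. Sva, seminal vesicle antigen, a secreted protein that binds sperm, took 2.07% and 1.95% of secretory UMIs in the control mice and 0.0892% and 0.104% in the CR mice. Both CR mice stood far under both control mice and under the range of 1.55% to 2.41% on the other diets. The change was -4.83 ± 0.18 on the log2 scale (SE, n = 2 and 2), 28.5-fold lower, with an adjusted p of 2.17e-10 by the quasi-likelihood test of edgeR, adjusted after Benjamini and Hochberg over all genes tested, which is the test behind every adjusted p here. Pate14, a member of the PATE family of small cysteine-rich secreted proteins, took 2.91% and 3.36% in the control mice and 0.888% and 0.793% in the CR mice (log2 change -2.34, adjusted p = 2.17e-10). Pate4, another PATE protein of seminal fluid, took 4.30% and 3.76% in the control mice and 2.24% and 2.80% in the CR mice (log2 change -1.13, adjusted p = 6.2e-07). These 3 mRNAs were lower in both CR mice than in all 6 other mice.

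Svs4 was the product whose share of secretory UMIs stood higher in CR mice. It took 14.8% and 14.5% of UMIs in the control mice, 22.8% and 24.0% in the CR mice, and 13.5% to 15.1% on the other diets. Svs5 took 25.0% and 28.5% in the control mice and 26.3% and 25.7% in the CR mice, so that its shares overlapped between the diets. Svs2, Svs4, Svs5 and Svs6 chose the secretory cells, so that their values there are given as a description, with no test. The scaling moved all of these levels. With TMM (trimmed mean of M values, a scaling to the bulk of genes), whose factors were 1.27 and 1.45 in the CR mice against 1.01 and 0.960 in the control mice and 0.776 to 0.961 on the other diets, the log2 difference was -0.49 for Svs5 and 0.23 for Svs4. As shares of all UMIs, with no scaling beyond library size, it was -0.03 for Svs5 and 0.69 for Svs4. Sva, Pate4 and Pate14 fell on both scales, with log2 changes of -4.37, -0.67 and -1.89 without TMM. Without TMM the median log2 change over all secretory genes moved from 0.01 to 0.40.

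The promoter windows of 2 products that fell on both scales, Sva and Pate14, and of Svs5 and Svs4, whose shares overlapped or stood higher in CR mice, are shown for comparison. Each sequence, from RefSeq on GRCm38.p6, spans 300 bases, from 250 before to 50 after the gene's start on its own strand, and capitals mark TGTTCT or its reverse complement AGAACA, the half-site that androgen and glucocorticoid receptors share, searched on both strands. The Sva window lies at chr6:42038144-42038443 (plus strand), Pate14 at chr9:36638553-36638852 (minus), Svs5 at chr2:164332515-164332814 (plus) and Svs4 at chr2:164278258-164278557 (minus). The Pate14 window lies inside the wider span that the GENCODE annotation gives this gene, chr9:36635754-36643376. Its RefSeq start therefore differs from the GENCODE start, which was not searched. The Sva window held 2 matches, the Svs5 window 1, and the Pate14 and Svs4 windows 0, while 19% of all 32851 promoter windows held at least 1. A match of 6 letters is a description of the sequence and not a binding site. Pate4 and Spink1 were not in the sequence table.
Sva: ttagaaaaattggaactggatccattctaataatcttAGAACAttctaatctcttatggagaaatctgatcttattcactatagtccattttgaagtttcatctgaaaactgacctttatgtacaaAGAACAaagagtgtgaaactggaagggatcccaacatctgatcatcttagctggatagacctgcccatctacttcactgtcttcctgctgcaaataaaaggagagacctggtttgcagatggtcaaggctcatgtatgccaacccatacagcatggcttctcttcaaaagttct
Pate14: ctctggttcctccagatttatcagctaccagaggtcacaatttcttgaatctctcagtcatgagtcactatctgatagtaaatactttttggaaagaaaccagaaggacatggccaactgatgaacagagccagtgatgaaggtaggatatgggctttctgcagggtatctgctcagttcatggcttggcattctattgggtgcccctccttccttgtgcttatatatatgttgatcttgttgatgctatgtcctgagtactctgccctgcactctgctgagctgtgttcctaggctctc
Svs5: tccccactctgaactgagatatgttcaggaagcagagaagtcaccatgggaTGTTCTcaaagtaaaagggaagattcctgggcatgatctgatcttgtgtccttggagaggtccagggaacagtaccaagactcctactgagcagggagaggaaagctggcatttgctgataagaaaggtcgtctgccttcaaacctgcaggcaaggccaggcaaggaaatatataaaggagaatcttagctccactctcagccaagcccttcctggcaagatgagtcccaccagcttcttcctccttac
Svs4: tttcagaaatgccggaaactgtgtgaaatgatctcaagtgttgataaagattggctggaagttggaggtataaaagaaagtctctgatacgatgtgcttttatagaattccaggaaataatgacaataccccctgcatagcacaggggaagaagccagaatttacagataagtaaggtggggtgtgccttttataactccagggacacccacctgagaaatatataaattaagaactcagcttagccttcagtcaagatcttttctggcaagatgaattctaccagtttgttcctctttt

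Svs6, Spink1, Svs3a and Svs3b had lower shares in both CR mice than in both control mice, and CR mouse 2 lay below CR mouse 1 in each. Svs6 took 4.33% and 5.04% of secretory UMIs in the control mice and 2.15% and 1.09% in the CR mice. Spink1, a secreted trypsin inhibitor that acts on sperm, took 1.98% and 2.46% against 0.337% and 0.173% (log2 difference -3.54, adjusted p = 0.0963). Svs3a took 0.958% and 1.04% against 0.183% and 0.0734% (-3.35, adjusted p = 0.164), and Svs3b took 1.03% and 1.04% against 0.461% and 0.243% (-1.97, adjusted p = 0.238). None of the last 3 passed the test. Without TMM, Spink1 fell by 3.11 (adjusted p = 0.00989) and Svs3b by 1.55 (adjusted p = 0.0425). Svs2 was nearer, at 11.4% and 8.18% against 8.85% and 6.96%, and its mice overlapped. Ceacam10 took 1.80% and 1.95% against 1.89% and 1.28%, again with overlap. Of the 12 seminal fluid products tested that did not choose the cells, 0 rose, 2 fell (Sva and Pate4) and 10 did not pass the test. Over all 5661 genes tested in secretory cells, 0.194% rose and 0.583% fell. With TMM all 12 had negative log2 differences, with a median of -1.55 against 0.01 over all secretory genes. Without TMM those of Clu (0.06) and Serpina3n (0.18) were positive, and the median over all secretory genes was 0.40. The number of falls moved with the settings: it was 8 without CR mouse 1, 6 without CR mouse 2, 3 without control mouse 2, 4 without TMM and 7 with DESeq2, with 0 rises in each.

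**Figure D1:**
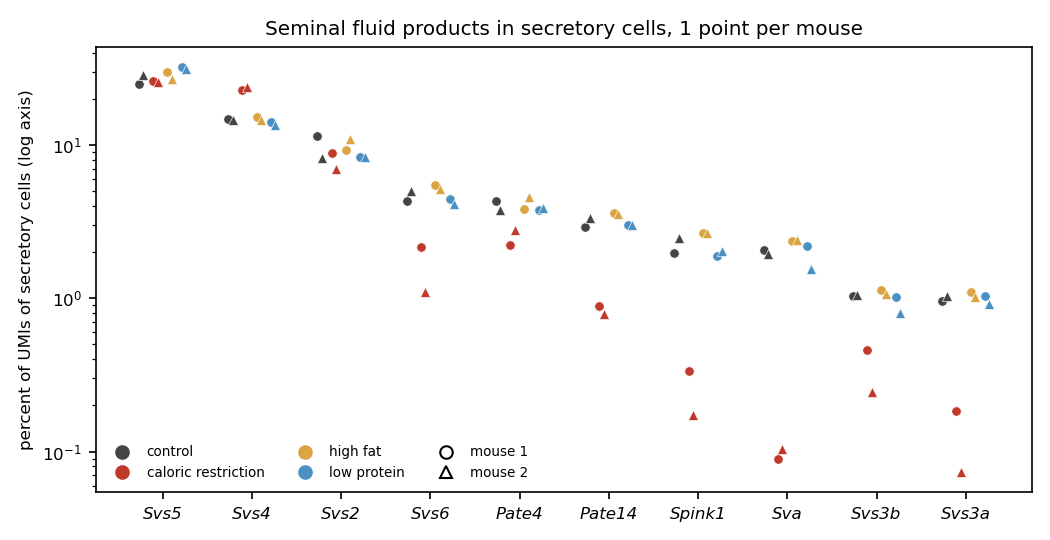
Share of the UMIs of secretory cells (percent, log axis) taken by 10 seminal fluid mRNAs in each of the 8 mice of the diet experiment, coloured by diet, with circles for mouse 1 and triangles for mouse 2. Sva in the CR mice sits at 0.0892% and 0.104% against 1.95% to 2.07% in the control mice, while Svs5 overlaps and Svs4 is higher in the CR mice.

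Over all 5661 genes tested in secretory cells, 11 were higher in CR mice (0.194% of genes tested) and 33 lower (0.583%). In all 44 the control and CR mice did not overlap. Such separation of called genes, here and in the classes below, describes values that the test used and is no further support. Svs5, which helped to choose the cells, is among the 33. With only the 4 compared mice in the fit 4 were higher and 24 lower. Before adjustment, 565 genes had p under 0.05. The split into higher and lower was set by the scaling: with TMM 75% of called genes were lower, whereas without TMM 65 were higher and 25 lower (27.8% lower). Summed cells cannot tell fewer contributing cells from less mRNA per cell.

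Among the other secretory genes that fell were a host defence peptide, a relative of Sva and an enzyme of lipid breakdown. Defb42, a beta-defensin of the male tract, stood at 138 and 84.3 CPM (TMM-scaled here) in the control mice and 2.75 and 0 CPM in the CR mice, with 707, 35, 11 and 0 UMIs (log2 change -5.60 ± 0.39, adjusted p = 1.32e-08). Sval2, a close relative of Sva, stood at 19.5 and 41.0 CPM against 1.5 and 1.88 (-3.93, adjusted p = 7.19e-05). Phyh, the peroxisomal hydroxylase that starts the breakdown of phytanic acid, stood at 335 and 352 CPM against 51.7 and 71.6 (-2.52 ± 0.19, adjusted p = 2.76e-08). The CR mice lay below every mouse on the other diets in all 3 genes. Bglap3, an osteocalcin-related gene, fell from 71.9 and 74.7 CPM to 5.24 and 9.42 (-3.58, adjusted p = 7.31e-08). Doxl2, a diamine oxidase-like gene, fell by 3.33 on the log2 scale (adjusted p = 0.000133), and Gm10542 fell by 2.63 (0.000333). Sva, Pate4, Defb42, Phyh, Bglap3, Sval2, Doxl2 and Gm10542 stayed past the threshold with every single mouse left out and under every other setting tried.

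Timp1, B2m, Asns and Slc7a5 were also among the genes lower in CR secretory cells. Timp1, an inhibitor of matrix metalloproteinases, stood at 214 and 222 CPM in the control mice and 72.2 and 56.5 in the CR mice (log2 change -1.72, adjusted p = 0.0011), and B2m, the light chain of MHC class I, at 2480 and 2477 CPM against 1351 and 984 (-1.08, adjusted p = 8.39e-05). Asns, asparagine synthetase, stood at 41.4 and 43.4 CPM against 16.2 and 15.1 (-1.39, adjusted p = 0.0314), and Slc7a5, a transporter of large neutral amino acids, at 50.0 and 55.4 against 21.5 and 15.1 (-1.38, adjusted p = 0.0108). Control and CR mice did not overlap in any of these 4 genes. Asns and Slc7a5 belong to the amino acid response list, the genes that the transcription factor ATF4 switches on when amino acids are short. Of its members 20 were tested: 0 rose, 2 fell and 18 did not pass the test, with a median log2 difference of -1.01. Over all secretory genes tested 0.583% fell, and the median was 0.01. Chac1 (59.4 and 79.5 CPM against 13.5 and 7.54, adjusted p = 0.416), Mthfd2 (adjusted p = 0.0909), Phgdh (0.0981) and Psph (0.0981) had lower values in both CR mice without passing, and Atf4 itself overlapped at 120 and 60.2 against 103 and 102 CPM. Without control mouse 1 the adjusted p was 0.331 for Asns and 0.184 for Slc7a5, without CR mouse 1 it was 0.147 for Asns and without CR mouse 2 it was 0.052, and without TMM both lost the call (0.109 and 0.0723). B2m fell outside the rule for named genes, as did Pate14, and both were chosen after their values were seen.

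Fewer genes rose in CR secretory cells. Akr1b3, aldose reductase, stood at 351 and 349 CPM in the control mice and 657 and 597 in the CR mice (log2 change 0.84, adjusted p = 0.00523), and Ramp1, a partner of calcitonin-type receptors, at 8.21 and 12.0 against 32.0 and 52.8 (2.12, adjusted p = 0.00296). Hopx, a small homeodomain protein, stood at 45.9 and 53.0 CPM against 86.4 and 151 (1.24, adjusted p = 0.0178). All 3 were higher in both CR mice than in all 6 other mice, and their adjusted p without control mouse 1 was 0.184, 0.437 and 0.343. Akr1b3 had an adjusted p of 0.109 without control mouse 2, and Hopx 0.131 without CR mouse 2. Lgals9, a galectin, rose by 1.38 and Phlda1 by 1.28 on the log2 scale (adjusted p = 0.00561 and 0.00407, and 0.228 and 0.112 without control mouse 1). Slc6a6, the taurine transporter, rose by 1.52 (adjusted p = 0.0291), Lpcat3, a phospholipid remodelling enzyme, by 1.62 (0.0471) and Zfp36l1, an mRNA decay factor, by 1.02 (0.0372). None of these last 3 passed without control mouse 1 (adjusted p = 0.192, 0.497 and 0.347) or without control mouse 2 (0.0622, 0.0743 and 0.138). Lpcat3 and Zfp36l1 also lost the call without CR mouse 1 (0.0624 and 0.0698) and without CR mouse 2 (0.107 and 0.0721).

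Among the rising genes, a pair marks other cell types. Tagln, an actin-binding protein of smooth muscle, stood at 3.32 and 12.0 CPM against 41.4 and 28.3 (log2 change 3.09, adjusted p = 0.000428), and Col1a1, the fibroblast collagen chain, at 0.977 and 0 against 16.5 and 5.65 CPM, from 5, 0, 66 and 3 UMIs (3.84, adjusted p = 0.015). Over the secretory cells, 7 smooth muscle markers summed to 12.0 and 48.1 CPM of unscaled UMIs in the control mice, 145 and 51.1 in the CR mice and 6.91 to 10.3 on the other diets, and 8 fibroblast markers to 97.4 and 302 against 245 and 78.0. In T/NK-like cells, which should lack it, Tagln also stood higher, at 15.5 and 27.1 CPM against 526 and 391. The part of RNA from other cells in these calls was not tested. Neither call held without control mouse 1 (adjusted p = 0.449 and 0.444), and that for Tagln also without CR mouse 1 (0.0971). The 8 basal cell markers, among them Krt7, Krt8 and Cldn4, summed to 939 to 1115 CPM in the control mice, 1621 to 1876 in the CR mice and 519 to 1053 on the other diets. Of the 8, Krt5 overlapped at 27.2 and 20.6 CPM against 40.5 and 26.9. Krt14, a leading gene of a basal-like cluster outside the 8, was lower in CR mice, at 63.5 and 77.9 against 50.1 and 35.0.

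**Figure D2:**
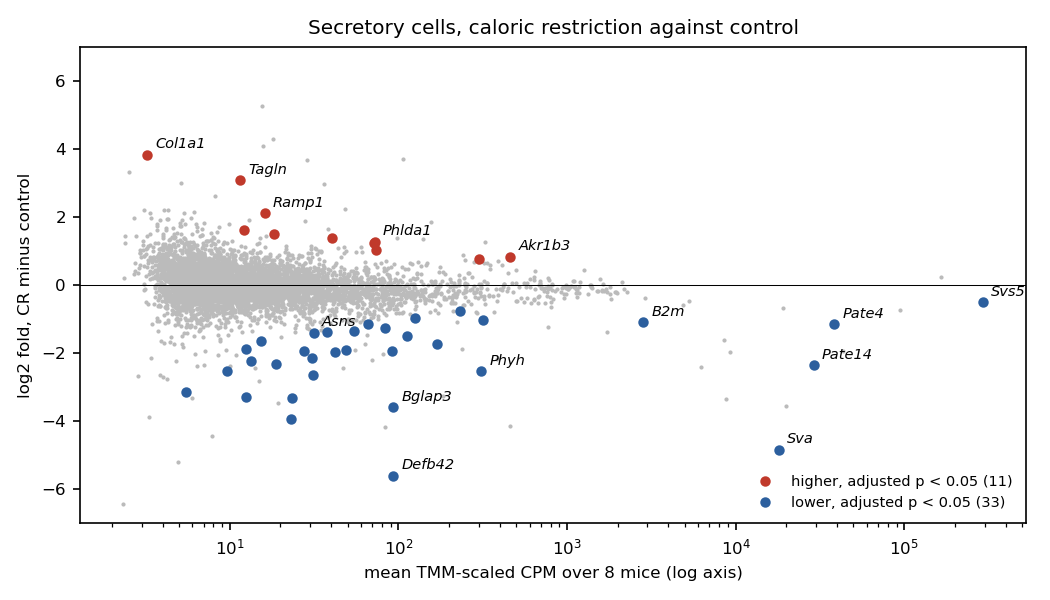
Log2 difference, CR minus control, against mean TMM-scaled CPM (log axis) for the 5661 genes tested in secretory cells, with the 11 genes that rose in red and the 33 that fell in blue. Sva and Defb42 lie lowest among the labelled genes, at -4.83 and -5.60.

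Of 11 extracellular matrix genes in secretory cells, Col1a1 rose and Timp1 fell, with a median log2 difference of 1.30. The median over all secretory genes was 0.01, or 0.40 without TMM. The gene groups that follow gave no calls in secretory cells. Sterol synthesis genes had positive log2 differences in 12 of 12 tested members with a median of 0.59, and clock genes in 10 of 11 with a median of 0.76, with 0 calls in either list. For Hmgcs1, the sterol pathway synthase, the mice stood at 6.65, 7.23, 12.5 and 13.2 CPM (control 1 and 2, CR 1 and 2), and for Dbp, a clock output factor, at 8.80, 2.41, 14.2 and 30.2 CPM (adjusted p = 0.479 and 0.268). Androgen response genes had 6 positive and 8 negative log2 differences among 14 tested, with a median of -0.30 and 0 calls. Immediate early and dissociation stress genes were positive in 27 of 30 members with a median of 0.57 and 0 calls. Their summed level was 4533 to 5373 CPM in the control mice, 8274 to 10432 in the CR mice and 3606 to 5316 on the other diets, so that both CR mice stood above the other 6. Its part in the secretory results was not tested.

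Against the mean of all 3 other diets, a comparison that shares the CR and control mice with the first, 85 secretory genes were higher in CR mice (1.5% of genes tested) and 141 lower (2.49%). The values for Sva were -5.01 (adjusted p = 7.38e-11) beside -4.83 against control alone, for Pate4 -1.26 (8.23e-09) beside -1.13, and for Phyh -2.72 (1.68e-09) beside -2.52. In the sum of all other cells the same comparison called 217 genes higher (1.84%) and 239 lower (2.03%).

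Outside the secretory cells the make-up of the recovered cells differed between the diets. Fibroblast-like cells made up 20.9% and 19.0% of cells in the control mice and 48.1% and 36.7% in the CR mice, with 25.8% to 29.8% on the other diets (log2 change 1.08, adjusted p = 0.0272 over 14 classes). Basal-like cells fell from 24.7% and 13.2% to 8.53% and 7.57% (-1.28, adjusted p = 0.0272), and endothelial-like cells from 5.49% and 7.47% to 1.71% and 2.33% (-1.64, adjusted p = 0.0162). Both CR mice lay outside the range of all 6 other mice in these 3 classes. Clusters left unnamed fell from 9.08% and 9.20% to 1.89% and 2.33% (-2.12, adjusted p = 0.00306). Those led by Svs1 and Bglap3 or by Pate4 missed the marker criteria for a name. Those led by Neat1 and Malat1, Gm42418 and Lars2, or Upk3b and Msln met them. Their best classes were basal-like, prostate-like and fibroblast-like in this order, and they were left unnamed after their leading genes were seen. Smooth muscle-like cells made up 5.20% and 8.05% against 11.4% and 14.1% without passing (1.02, adjusted p = 0.0746), and secretory cells did not pass either (-0.95, adjusted p = 0.198). Leaving out control mouse 1 gave adjusted p-values of 0.296 for basal-like and 0.0891 for fibroblast-like cells, and leaving out control mouse 2 gave 0.0678 for fibroblast-like cells. None of the 4 shares passed with only the 4 compared mice in the fit (adjusted p = 0.382 for fibroblast-like, 0.320 for basal-like, 0.213 for endothelial-like and 0.089 for unnamed cells). At Leiden resolution 2 fibroblast-like and unnamed cells did not pass (0.0677 and 0.152). The genes that define the clusters include some that differ between the diets, such as Igfbp5 and Krt16, and the class names were rebuilt from markers.

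In the sum of all non-secretory cells 59 genes were higher in CR mice (0.501% of 11781 tested) and 118 lower (1%), in sums that mix classes whose shares differed as given above. With only the 4 compared mice in the fit 3 genes were higher and 3 lower, and of 33 genes that met the rule for named genes 31 lost the call, all but Slco4a1 and Upk3b. Krt16, a keratin of activated basal cells, stood at 57.1 and 54.0 CPM against 5.97 and 2.07 (log2 change -3.68, adjusted p = 0.00742), and Ivl, the envelope protein involucrin, at 12.1 and 14.9 against 0.639 and 0.691 (-4.19, adjusted p = 0.0343). Ly6d, a surface protein of basal cells, stood at 229 and 183 CPM against 34.3 and 14.5 (-3.06, adjusted p = 0.03). In these 3 genes the mice did not overlap, and basal-like cells took a smaller share of the CR libraries, as given above. Padi3, Adh7, Slco4a1, Inava and Paqr5 also fell, by 3.39, 3.07, 2.74, 2.74 and 2.65 on the log2 scale. Among the rises, Fxyd4, a regulator of the sodium pump, stood at 9.37 and 14.9 CPM against 67.3 and 118 (3.11, adjusted p = 0.00687), and Fbxl22, an F-box protein of muscle, at 17.2 and 42.9 against 118 and 138 (2.39, adjusted p = 0.0146). Fxyd4 is a leading gene of a prostate-like cluster, a class whose shares overlapped between the diets. Fbxl22 leads a smooth muscle-like cluster, a class at 5.20% and 8.05% against 11.4% and 14.1%. The part of class make-up in these rises was not tested. Agtr2, the type 2 angiotensin receptor, stood at 1.56 and 0 CPM against 17.5 and 15.9 (3.6, adjusted p = 0.0278). Upk3b, a mesothelial and urothelial marker, had 2, 0, 88 and 64 UMIs, a CR to control ratio of 53.1 (exact interval 14.5 to 443, counting error only), but reached 23.8 CPM on the other diets, above both CR mice. Without control mouse 1, 26 genes were called in place of 177, and the adjusted p was 0.113 for Krt16, 0.212 for Ivl and Ly6d, 0.273 for Padi3, 0.137 for Adh7 and Inava, 0.153 for Paqr5, 0.128 for Fxyd4, 0.0776 for Fbxl22 and 0.207 for Agtr2 and Upk3b. Other single mice ended the calls of Ivl (adjusted p = 0.0654 without control mouse 2, 0.133 and 0.134 without CR mouse 1 and 2), Ly6d (0.0747 without control mouse 2) and Agtr2 (0.0726 and 0.0542 without CR mouse 1 and 2).

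Gene lists gave few calls in these sums. Of 29 extracellular matrix genes tested in non-secretory cells, 5 rose and 0 fell: Col1a1 (log2 change 1.97), Fbln1 (2.00), Col6a2 (1.65), Col6a1 (1.5) and the matrix metalloproteinase Mmp2 (1.38), with a list median of 0.74 against 0.02 over all genes. Fibroblast-like cells, which make these proteins, took a larger share of the CR libraries, as given above. Of 19 clock genes 2 rose: Dbp, at 36.8 and 39.1 CPM against 127 and 122 (1.73, adjusted p = 0.00566), and Per3, a period protein, at 7.81 and 11.2 against 23.4 and 35.9 (1.78, adjusted p = 0.03). Pmepa1, which androgen receptor and TGF-beta induce, was the member of 23 androgen response genes that fell, from 230 and 281 CPM to 99.3 and 106 (-1.31, adjusted p = 0.00687). Of 20 glucocorticoid response genes 8 had positive and 12 negative log2 differences, with a median of -0.32. Tsc22d3, a glucocorticoid target, was the 1 member called, and rose from 45.3 and 52.2 to 82.9 and 109 CPM (1.00, adjusted p = 0.048). Of 13 seminal fluid products that did not divide the cells, Gpx3 rose by 1.93 and Svs3a fell by 1.69. Gpx3 is a leading gene of the fibroblast-like cluster led by Lum, and Svs3a of the unnamed cluster led by Svs1. The shares of both classes differed between the diets, as given above, and their part in these calls was not tested. In T/NK-like cells, which should lack them, the 4 SVS genes summed to 7769 to 12117 CPM in the control mice and 3653 to 4154 in the CR mice. With control mouse 1 left out the adjusted p was 0.121 for Col1a1 and Col6a2, 0.128 for Fbln1, 0.113 for Col6a1, 0.216 for Mmp2, 0.066 for Dbp, 0.343 for Per3, 0.292 for Tsc22d3 and 0.216 for Svs3a. Leaving out CR mouse 1 or 2 also ended the calls of Col1a1 (0.0732 and 0.121) and Svs3a (0.123 and 0.148), leaving out CR mouse 2 those of Per3 (0.106) and Tsc22d3 (0.164), and leaving out control mouse 2 those of Svs3a (0.0572) and Tsc22d3 (0.0654).

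In basal-like cells Krt16, Padi3 and Pfkfb3 were among the genes that fell in CR mice. Of 5256 genes tested, 26 were higher (0.495%) and 88 lower (1.67%), and in all 114 the mice did not overlap. With only the 4 compared mice in the fit 12 were higher and 51 lower. Basal-like cells numbered 261 and 23 in the control mice and 95 and 52 in the CR mice. Low CPM values of control mouse 2, here and in the next paragraph, therefore rest on few UMIs. Krt16 stood at 164 and 282 CPM in the control mice and 47.4 and 18.0 in the CR mice (log2 change -2.37, adjusted p = 0.000901), and Padi3, an enzyme that citrullinates keratin-binding proteins, at 112 and 48.6 against 21.9 and 4.5 (-2.57, adjusted p = 0.00216). Pfkfb3, which raises the activator of phosphofructokinase in glycolysis, stood at 76.3 and 136 CPM against 21.9 and 8.99 (-2.28, adjusted p = 0.00576). The control mice were higher in each. Hk2, hexokinase, stood at 262 and 418 against 89.4 and 58.5 CPM (-2.00, adjusted p = 9.47e-05), and Hif1a, the hypoxia factor, fell by 0.87 (adjusted p = 0.00465); both were chosen after their values were seen. Angptl4, a PPAR target and inhibitor of lipoprotein lipase, stood at 50.0 and 29.2 CPM against 5.47 and 0, from 72, 3, 3 and 0 UMIs (-3.52, adjusted p = 0.00297). Cpt1a, which takes fatty acids into mitochondria, overlapped at 48.6 and 38.9 against 51.1 and 45.0 CPM (adjusted p = 0.987). Without control mouse 1 the adjusted p was 0.577 for Padi3 and 0.487 for Angptl4, while Krt16, Pfkfb3 and Hk2 kept their calls with any mouse left out. Hif1a did not pass without control mouse 1 (0.283) or CR mouse 2 (0.0521).

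Further genes fell or rose in basal-like cells. Pmepa1 fell by 1.52 on the log2 scale (adjusted p = 0.000181), and the call held with any mouse left out. The uncharacterised gene 5430419D17Rik had 73, 5, 1 and 0 UMIs, a control to CR ratio of 39.3 (exact interval 6.86 to 1574, counting error only). Spry1, an inhibitor of growth factor signalling through RAS, stood at 28.4 and 19.4 CPM against 161 and 220 (2.74, adjusted p = 9.47e-05), and Gdf15, a stress-induced hormone that lowers appetite, at 25.7 and 19.4 against 96.7 and 130 (2.12, adjusted p = 0.00197). Nr4a1, an immediate early nuclear receptor, stood at 199 and 204 CPM against 533 and 1140 (2.03, adjusted p = 0.0111). CR mice were higher in all 3 genes. Nes, an intermediate filament protein, rose by 2.88 and Insig1, which holds back sterol synthesis, by 2.07 (adjusted p = 0.00268 and 0.0345). Of 79 ribosomal protein genes 10 rose and 0 fell, with 73 positive and a median of 0.28 against 0.03 over all genes, and Rpl36 moved from 4687 and 3927 CPM to 6184 and 6574 (0.56, adjusted p = 0.0019). Of the 79, 0 passed without control mouse 2, 2 without CR mouse 2, 6 without control mouse 1 or CR mouse 1, and 1 with DESeq2 or with the 4 mice alone. Of 29 stress genes 3 rose, Nr4a1, Btg2 and Jund, and Fosl1 fell. Btg2 and Jund did not pass without control mouse 1 (adjusted p = 0.371 and 0.0559), control mouse 2 (0.114 and 0.262) or CR mouse 2 (0.106 and 0.252), and Fosl1 not without control mouse 1 (0.524) or CR mouse 1 (0.184). In the fit lacking control mouse 1 the adjusted p was 0.225 for 5430419D17Rik, 0.0559 for Spry1, 0.289 for Gdf15, 0.286 for Nr4a1, 0.553 for Nes and 0.314 for Insig1. Without control mouse 2 it was 0.123 for Nr4a1, 0.0672 for Insig1 and 0.0713 for Rpl36, and without CR mouse 1 it was 0.063 for 5430419D17Rik, 0.293 for Nes and 0.586 for Insig1.

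Basal-like cells came from a pair of clusters whose proportions differed between the diets. The cluster led by Calml3, Tmem171 and Ly6d held 50.6% and 52.2% of basal-like cells in the control mice and 89.5% and 96.2% in the CR mice, and the cluster led by Lgals7, Krt17, Krt15 and Krt16 held the rest, 49.4% and 47.8% against 10.5% and 3.85%. Krt16 and Krt17 are thus genes that set the clusters apart. In the Calml3 cluster alone 5 genes were higher and 28 lower of 3383 tested; there Krt16 differed by -1.67 (adjusted p = 0.468), Gdf15 by 1.27 (0.161) and Spry1 by 2.42 (0.0572), none of which passed. The 4 SVS genes summed to 9920 to 16051 CPM in the basal-like cells of the control mice and 33697 to 36307 in those of the CR mice, and 7 smooth muscle markers to 339 to 444 against 696 to 850. The further rises of Mylk by 1.66 and Myl9 by 1.66 were of contractile genes, and the part of other cells' RNA in them was not tested. Both lost the call without control mouse 1 (adjusted p = 0.0977 and 0.0559) and without CR mouse 1 (0.546 and 0.0717), and Mylk without control mouse 2 (0.0822).

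In fibroblast-like cells Igf1 was lower and Igfbp3 higher in CR mice, 6 of 18 interferon response genes and 4 of 17 androgen response genes fell, and 4 of 29 extracellular matrix genes rose. The 6 interferon calls were lost without control mouse 1. Of 6441 genes tested, 33 were higher (0.512%) and 100 lower (1.55%), and the mice did not overlap in 132 of the 133. With only the 4 compared mice in the fit 21 were higher and 57 lower. Fibroblast-like cells numbered 221 and 33 in the control mice and 536 and 252 in the CR mice. Low CPM values of control mouse 2, here and in the paragraphs on these cells below, therefore rest on few UMIs. Igf1, insulin-like growth factor 1, which stromal cells make locally, stood at 1128 and 1163 CPM in the control mice and 599 and 436 in the CR mice (log2 change -1.14 ± 0.18, adjusted p = 0.00044), and the call held with any mouse left out. Igfbp3, the main carrier of IGF1, stood at 257 and 312 CPM against 792 and 796 (1.52, adjusted p = 6.24e-05). The binding protein Igfbp5 stood at 1761 and 2294 CPM against 289 and 219 (-2.98, adjusted p = 0.0364). So 1 carrier was higher and another lower in both CR mice. Txnip, an inhibitor of glucose uptake, stood at 79.4 and 53.9 CPM against 233 and 249 (1.70, adjusted p = 0.000544), and Trib1 fell by 0.85 (0.0484). Of 19 insulin, IGF and FOXO genes 2 thus rose, 3 fell and 14 did not pass, among them the receptors Igf1r (adjusted p = 0.473) and Insr (0.792). Igfbp5 lost the call whichever mouse was left out (adjusted p = 0.129 to 0.196), and Trib1 without control mouse 1 (0.899), CR mouse 1 (0.184) or CR mouse 2 (0.0823).

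Among the gene lists, interferon response genes had the most falls in fibroblast-like cells. Of 18 tested, 0 rose and 6 fell, with a list median of -1.58 against 0.03 over all genes. Isg15, a ubiquitin-like interferon product, stood at 209 and 96.9 CPM in the control mice and 43.5 and 30.5 in the CR mice (log2 change -2.21, adjusted p = 9.8e-05), Ifit1, a sensor of viral RNA, at 90.4 and 64.6 against 19.6 and 13.8 (-2.27, adjusted p = 0.00114), and Gbp2, a guanylate-binding protein, at 179 and 108 against 54.4 and 67.9 (-1.40, adjusted p = 0.00253). Control mice were higher in these 3 genes. Rtp4 and Xaf1 fell by 2.02 and 1.97 (adjusted p = 0.0323 and 0.0364). Ifit2 stood at 75.7 and 0 CPM against 4.35 and 8.31, so that its call rests on control mouse 1 alone, and the factors Stat2 and Irf1 did not pass (adjusted p = 1 and 0.67). Without control mouse 1 none of these 6 passed (adjusted p = 0.385 for Isg15, 0.379 for Ifit1, 0.579 for Gbp2, 0.764 for Rtp4, 0.584 for Xaf1 and 0.754 for Ifit2, whose difference then turned to 4.71). Leaving out CR mouse 1 ended the calls of Gbp2 (0.0503), Xaf1 (0.326) and Ifit2 (0.0845), and leaving out CR mouse 2 that of Rtp4 (0.139).

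Of the androgen response genes, 0 of 14 tested passed in secretory cells. In fibroblast-like cells 17 were tested, of which 4 fell and 0 rose, with 8 positive and 9 negative log2 differences. Pmepa1 stood at 325 and 549 CPM in the control mice and 141 and 120 in the CR mice (log2 change -1.64, adjusted p = 6.57e-05), as it also fell in basal-like cells. Abhd2, a lipid hydrolase, stood at 205 and 162 against 76.9 and 65.1 CPM (-1.42, adjusted p = 0.000544), and Ndrg1 and Sat1, a polyamine acetyltransferase, fell by 1.20 and 1.10 (adjusted p = 0.0192 and 0.0011). In all 4 genes both CR mice lay below both control mice. Abhd2 lost its call without control mouse 1 (adjusted p = 0.27), and Ndrg1 without control mouse 1, control mouse 2 or CR mouse 1 (0.183, 0.0534 and 0.317). Extracellular matrix genes had 4 rises and 0 falls among 29, and 2 rises and 2 falls without control mouse 1. Col1a1 stood at 388 and 646 CPM against 1189 and 1406 (1.40, adjusted p = 0.0114), and Fbln1, Col6a2 and Sparc rose by 1.08, 0.93 and 0.78. Omitting control mouse 1 gave an adjusted p of 0.0947 for Col1a1, 0.0839 for Col6a2 and 0.273 for Sparc, and without CR mouse 1 it was 0.051 for Col6a2. Of 16 clock genes Bhlhe41, a clock repressor, rose from 7.38 and 10.8 CPM to 48.6 and 59.5 (2.72, adjusted p = 0.00288) and Dbp from 120 and 96.9 to 249 and 226 (1.06, adjusted p = 0.012), and both lost the call without control mouse 1 (0.393 and 0.13), Dbp also without CR mouse 1 (0.0749).

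Further changes in fibroblast-like cells included genes with few UMIs. Dlk1, a preadipocyte factor, had 0 and 0 UMIs in the control mice and 32 and 30 in the CR mice, at least 6.52-fold higher if the control group is set at a floor of 3 counts over the group (adjusted p = 0.013). Csf3, the granulocyte growth factor, had 13 and 5 against 2 and 0 UMIs, a control to CR ratio of 28.5 (exact interval 6.83 to 253, counting error only). Rrm2, a subunit of ribonucleotide reductase used in DNA synthesis, stood at 40.6 and 108 CPM against 2.90 and 4.15 (log2 change -3.95, adjusted p = 0.000544). Mt3, a metallothionein outside the rule for named genes and chosen after its values were seen, stood at 598 and 302 CPM against 91.4 and 112 (-2.26, adjusted p = 3.12e-06). Serpine2, a secreted protease inhibitor, rose from 46.1 and 21.5 CPM to 163 and 170 (2.00, adjusted p = 0.000544), and Ccn1, a matrix protein, from 137 and 237 to 697 and 543 (1.90, adjusted p = 0.000178). Mice of the diets did not overlap in any of these 6 genes, and Rrm2, Serpine2 and Ccn1 kept their calls with any mouse left out. Dlk1 and Csf3 lost theirs without control mouse 1 (adjusted p = 0.393 and 0.0882), and Dlk1 also without CR mouse 2 (0.124). All 13 mitochondrially encoded genes had negative log2 differences in these cells (median -0.48), of which mt-Nd4l passed (-0.61, adjusted p = 0.0256); its call was lost without control mouse 1 (0.214), control mouse 2 (0.0747) or CR mouse 2 (0.344).

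Fibroblast-like cells were drawn from different clusters in the diets, which bears on these sums. The cluster led by Penk and Wif1 held 41.6% and 51.5% of fibroblast-like cells in the control mice and 4.10% and 2.78% in the CR mice, and the cluster led by Lum and Fbln1 held 14.5% and 9.09% against 27.8% and 25.0%. A cluster led by the heat shock gene Hspa1a held 4.98% and 3.03% against 33.4% in CR mouse 1 and 1.19% in CR mouse 2, so that CR mouse 1 stood apart. The cluster led by Wnt2 and Rorb held 23.5% and 24.2% against 23.1% and 56.0%. Igfbp5, Igf1, Penk and Wif1 are among the genes that define the Penk and Rorb clusters, and Fbln1 leads another. In the clusters with Rorb or Penk among their leading genes alone, 19 genes were higher and 70 lower of 5482 tested, and there Igfbp3 (0.84, adjusted p = 0.0897), Isg15 (-1.90, 0.162), Txnip (1.61, 0.275) and Fbln1 (0.90, 0.132) did not pass. Without the heat shock cluster 29 were higher and 67 lower of 6140, and Txnip did not pass (1.51, adjusted p = 0.0802). Smooth muscle markers summed to 463 to 513 CPM in the fibroblast-like cells of the control mice and 1429 to 1654 in those of the CR mice, and Tagln rose there by 1.88 (adjusted p = 6.24e-05). Stress genes summed to 29692 to 32156 CPM in the control mice, 56657 in CR mouse 1 and 30876 in CR mouse 2. The part of these levels in the calls was not tested.

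**Figure D3:**
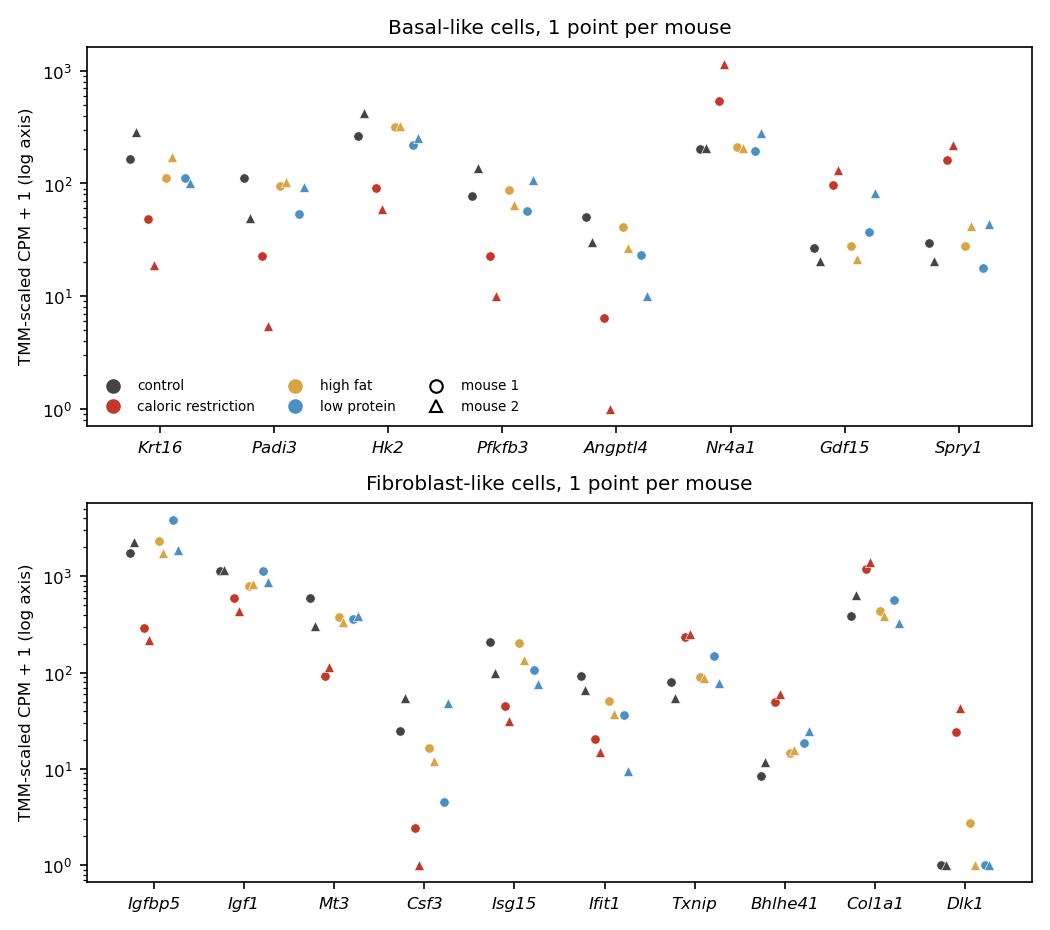
TMM-scaled CPM plus 1 (log axis) of named genes in basal-like and fibroblast-like cells of each of the 8 mice, coloured by diet, with circles for mouse 1 and triangles for mouse 2. In basal-like cells Hk2 sits at 58.5 to 89.4 CPM in the CR mice against 262 to 418 in the control mice, and in fibroblast-like cells Igf1 sits at 436 to 599 against 1128 to 1163.

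The smaller classes gave few calls. In T/NK-like cells 4 of 1721 genes rose (0.232%) and 0 fell, while 109 had p under 0.05 before adjustment: Acta2, smooth muscle actin, with 1, 0, 80 and 75 UMIs (ratio 55.6, exact interval 9.83 to 2210, counting error only), Tagln with 2, 1, 120 and 92 (25.3, 8.55 to 124), Mgp, a matrix protein, by 3.51 on the log2 scale (adjusted p = 0.00184) and Id3, an inhibitor of DNA-binding factors, by 2.58 (0.0171). Acta2, Tagln and Mgp are genes of smooth muscle and stroma, and the 7 smooth muscle markers summed to 54.1 to 69.6 CPM in the T/NK-like cells of the control mice and 841 to 1088 in those of the CR mice. All 4 calls were lost without control mouse 1 (adjusted p = 0.147, 0.147, 0.373 and 0.252) and with DESeq2. In endothelial-like cells Ccl11, the eosinophil attractant eotaxin, was the 1 gene of 1217 that rose (0.0822%). It stood at 40.6 and 0 CPM against 429 and 616, from 5, 0, 13 and 18 UMIs (3.86, adjusted p = 0.0111), with up to 498 CPM on the other diets. Among the 1217 genes 0 fell and 83 had p under 0.05. Basal markers in these cells summed to 1430 to 2522 CPM in the control mice and 68.7 to 535 in the CR mice.

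Macrophage-like and smooth muscle-like cells gave 0 calls of 2716 and 2281 genes tested by edgeR, with 234 and 220 genes at p under 0.05 before adjustment, and 0 and 12 calls by DESeq2. The nearest in macrophage-like cells were Cd74, the chaperone of MHC class II (log2 difference -0.79, adjusted p = 0.238), its partner H2-Ab1 (-0.70, 0.357), Mmp13, a collagenase (-2.48, 0.218), and Igf1 at 26.6 and 60.7 CPM against 210 and 181 (2.33, 0.218). In smooth muscle-like cells they were Wif1, a secreted Wnt inhibitor, at 2479 and 2149 CPM against 115 and 50.5 (-4.79, adjusted p = 0.0717), and Igfbp2 at 442 and 375 against 90.3 and 47.9 (-2.56, 0.0894). None of these 6 genes passed the test. The mice of the diets did not overlap in them, but they were picked for small p-values, so that this separation is no support.

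**Figure D4:**
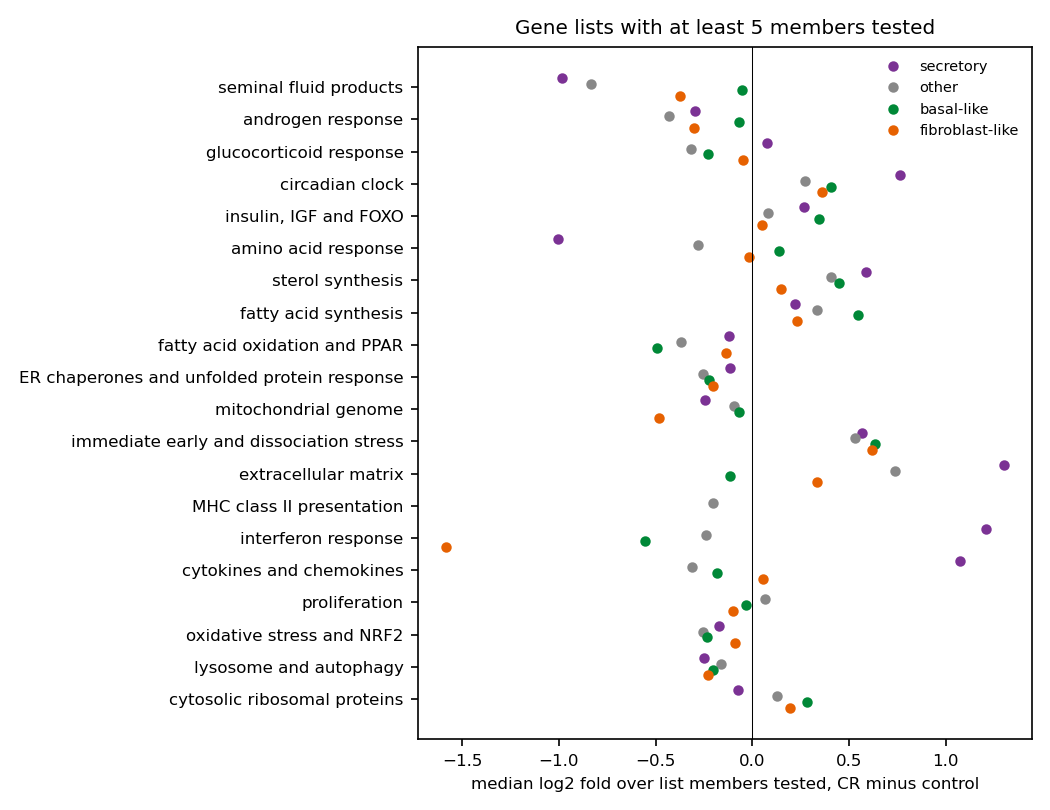
Median log2 difference, CR minus control, of each gene list with at least 5 tested members in secretory, other, basal-like and fibroblast-like cells. The seminal fluid list, with the 4 SVS genes that chose the cells, lies at -0.98 in secretory cells and the interferon list at -1.58 in fibroblast-like cells, against medians of 0.01 and 0.03 over all genes there.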

How the data were processed

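Single cells of the seminal vesicle of 8 mice were tagged, pooled and run together, and the deposited files hold, per mouse, UMI counts of 32285 genes in the cells that Cell Ranger 6.0.1 called on an mm10 reference, without normalization by the authors; 12 multiplexing tag entries per library were left out. Diets were read from the names of the deposited matrices. Cells with at least 500 genes and at most 10% mitochondrial UMIs were kept. This was 78.9% and 78.4% of the deposited cells in the control mice and 87.1% and 90.8% in the CR mice. On the other diets it was 70.9% to 77.2%, so that both CR mice stood above every other mouse. The part of this difference in the cell shares and calls was not tested. Median UMIs per cell ranged from 20508 to 43618 in secretory cells and from 2714 to 3267 in other cells. Doublets were kept, and leaving out 28 cells that a simulated-doublet score marked was an alternative. Other cells of the 8 mice were clustered (2000 variable genes, 30 principal components, Leiden resolution 1, leidenalg 0.10.2, Python 3.11.15) and named by markers. Some clusters whose markers met the criteria for a name were left unnamed after their leading genes were seen. A class was tested with at least 10 cells in each of the 4 mice.

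UMIs were summed per mouse and tested with edgeR 4.0.16 in R 4.3.3 (quasi-likelihood test, TMM, genes of low count filtered by diet, Benjamini-Hochberg adjustment, threshold 0.05), fitted over all 8 mice so that the 4 diets share 1 estimate of the spread. The script was checked on simulated data. Cells per class were tested in the same way. Exact binomial intervals are at 95%, and intervals and floors (3 counts) cover counting error only. In each fit the genes named were the 10 largest rises and falls past the threshold, members of 20 gene lists past it and, with under 5 calls, the 8 smallest p-values per direction. Other members of the lists given beside them, and the genes marked so, were chosen after their values were seen. The comparison, gene lists and markers were chosen with earlier results of these data known. Alternatives were DESeq2 1.42.0, other scalings, filters, thresholds, clusters, a fit of the 4 mice alone, replicate blocks and leaving out each mouse. A few named genes are not reported here.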

Additional observations from a re-analysis of the deposited data

Results flagged for a closer look

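A gene that passed the test in a pair of cell classes with opposite directions was singled out, and the difference between the classes was not tested. Hopx stood at 45.9 and 53.0 CPM in secretory cells of the control mice and 86.4 and 151 in those of the CR mice (log2 change 1.24, adjusted p = 0.0178), but at 70.1 and 43.1 against 26.1 and 22.2 CPM in fibroblast-like cells (-1.38, adjusted p = 0.0302), a gap of 2.62 on the log2 scale. The call in secretory cells was lost without control mouse 1 (adjusted p = 0.343) or CR mouse 2 (0.131), and that in fibroblast-like cells without control mouse 1 (0.785), CR mouse 1 (0.0817) or CR mouse 2 (0.111). Jund, an AP-1 subunit that responds to dissociation, stood at 1997 and 1584 against 2468 and 3341 CPM in basal-like cells (0.68, adjusted p = 0.0434) and at 5508 and 4534 against 3707 and 3515 CPM in fibroblast-like cells (-0.48, adjusted p = 0.0432), a gap of 1.16. Both calls of Jund are fragile: the one in basal-like cells was lost without control mouse 1 (adjusted p = 0.0559), control mouse 2 (0.262) or CR mouse 2 (0.252) and kept in 3 of 10 other settings, and the one in fibroblast-like cells was lost without control mouse 1 (0.528), CR mouse 1 (0.179) or CR mouse 2 (0.374) and kept in 4 of 11. Mgp stood at 3815 and 5752 against 2658 and 2696 CPM in fibroblast-like cells (-0.83, adjusted p = 0.0042) and at 19.0 and 65.0 against 345 and 368 CPM in T/NK-like cells (3.51, adjusted p = 0.00184), a gap of -4.34. The call in fibroblast-like cells was lost without control mouse 2 (adjusted p = 0.112) and that in T/NK-like cells without control mouse 1 (0.373). The CR mice stood apart from the control mice in all 6 of these sets. Groups of 2 mice allow no check for a single mouse far from its group.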

How the results depend on the processing

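The number of genes called between CR and control moved with the settings more than the direction of named genes did. In secretory cells 44 genes were called in the reported fit, against 99 with no filter on low counts, 28 with the 4 mice only, 90 with no scaling beyond library size and 31 to 115 with single mice left out, where 31 came without control mouse 1. Of the genes called, 75% were lower in the reported fit, 27.8% with no scaling and 58.7% with an SVS threshold of 50%. Other cells gave 177 calls, against 733 with no filter, 6 with the 4 mice only and 26 to 258 with a mouse left out. Without TMM 68 genes were higher and 101 lower there (59.8% lower, against 66.7%). Against the mean of the 3 other diets, secretory cells gave 226 calls, 109 with DESeq2 and 146 to 263 with a mouse left out, and other cells 456, 300 with DESeq2, 1090 with no filter and 203 to 571 with a mouse left out. Basal-like cells gave 114, against 64 with DESeq2, 63 with the 4 mice only, 33 in the Calml3 cluster only and 50 to 124 with a mouse left out. Fibroblast-like cells gave 133, against 72 with DESeq2, 78 with the 4 mice only and 71 to 136 with a mouse left out. Endothelial-like cells gave 1, against 0 with DESeq2, 16 with no filter, 6 with the 4 mice only and 2 to 24 with a mouse left out; T/NK-like cells gave 4, against 0 with DESeq2, 27 with no filter and 0 to 49; macrophage-like cells gave 0, against 31 with no filter and 0 to 13; and smooth muscle-like cells gave 0, against 12 with DESeq2, 26 with no filter, 22 with the 4 mice only and 0 to 1. Of 14 class shares 4 were called, against 0 with the 4 mice only, 2 at Leiden resolution 2 and 2 to 9 with a mouse left out. The difference in the share of secretory cells was -5.05 points, and -7.94 to -2.16 with a mouse left out. The causes of these moves were not tested beyond the fewer genes or mice that some settings hold.

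Direction turned in 2 cases: Dcn in basal-like cells (0.50, adjusted p = 0.95, in the Calml3 cluster only) and Ifit2 in fibroblast-like cells (4.71, adjusted p = 0.754, without control mouse 1, in a range of -3.70 to 4.71 over the fits without 1 mouse). Over all named genes and settings, the call was kept in 349 of the cases in secretory cells and lost with the direction held in 67; these numbers were 473 and 120 in other cells, 201 and 104 in basal-like and 352 and 134 in fibroblast-like cells. Mouse numbers only name the animals: same-numbered CR and control mice deviated together with correlations of -0.01, 0.24, 0.07 and -0.01 in secretory, other, basal-like and fibroblast-like cells. With the replicate number as a block the calls were 65, 203, 151 and 166 in these cells, 3 in endothelial-like and 25 in T/NK-like cells; with the numbers crossed they were 40 in secretory and 137 in other cells.

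Depth limits these results: 16 and 17 secretory cells stand behind 1 control and 1 CR mouse, and control mouse 2 gave 174 cells in all. A gene of low count can pass or miss by a few UMIs there. Abundant mRNAs missed as well, such as Spink1 at 1.98% and 2.46% of secretory UMIs in the control mice. A difference that did not pass was not detected with these mice at this depth, and was not shown to be absent.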
